A study of Mus musculus with 13 samples.

Results

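The 10 genes of the S to M phases of the cell cycle were described in B cells sequenced one by one after 24 h of stimulation. They were chosen by name from a list of proliferation markers, cyclins of the A, B and F types and mitotic regulators, and each was found by its Ensembl identifier in the count table. All 10 of 10 were present among the 37991 genes of the table, and all 10 were among the 6435 genes detected, meaning on (defined below) in 1 or more of the 9 cells of the size comparison. The members were Mki67 and Top2a, the cyclin genes Ccna2, Ccnb1, Ccnb2 and Ccnf, the kinase genes Cdk1, Plk1 and Aurkb, and Ect2.

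A dividing cell copies its DNA in S phase, prepares in G2 and separates the copies in M phase. Cyclin proteins rise and fall through these phases and switch on cyclin-dependent kinases, of which Cdk1 with cyclin B drives the entry into mitosis. Resting B cells lie outside the cycle, and a CpG oligonucleotide, which binds the receptor TLR9, can drive them into division, usually with growth in cell size before the division.

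The B cells were naive cells purified from spleens of wild-type C57BL/6 mice of 6 to 8 weeks, and the characteristics give 250 nM CpG ODN 1668 as the stimulus, whereas the extraction text gives 250 ng/mL. After 24 h cells were captured and photographed in a microfluidic device, and a library was made from each of 5 cells at the small end (A2, C12, C7, F7, H1, named by well) and from each of 5 at the large end (C1, C3, E1, E3, G2). The 3 control libraries were a negative control without a cell, a positive control and a bulk library labelled as unstimulated at 0 h. The negative control held spike-in RNA alone, and the positive control was diluted cDNA from many cells at 24 h. No animal or culture is named for any cell, so each size group counts as 1 sample, the difference between sizes has no replicate check, and no p-value is given. The volumes relative to the smallest sequenced cell ranged over 1 to 1.36 for small cells and 3.59 to 4.54 for large ones.

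Total gene counts were 3311235 to 6311782 per cell, 1740862 in the positive control, 825441 in the 0 h library and 190 in the negative control. The adjusted count of a gene is its read count in a cell multiplied by the spike-in factor of that cell, plus 100, and a gene was called on above an adjusted count of 300. Because the factors ran from 0.0998 (G2) to 1 (C1), a gene needed 200 reads to be on in C1 and 2005 in G2. In a whole-cell library, fewer copies per cell and less captured RNA cannot be told apart. Of 12 B cell markers, 7 to 11 were on in the 9 cells other than C3, while C3 had 1 of 12 on. C3 was left out of the large group, as the methods do, and is described on its own. All 6 NK cell markers and 8 of 9 T cell markers had no read in any of the 10 cells. The remaining T cell marker was on in F7 (663 reads). It had 396 reads in H1, 246 in E3 and 63 in E1, below the limit for on. Of the 9 myeloid markers at most 1 was on in a cell (A2, C12, G2 and C3), and their part in the results was not tested.

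Many genes of this kind share promoter elements. The cell cycle genes homology region (CHR, searched as TTTGAA or its reverse complement TTCAAA) and the CCAAT box (searched as CCAAT or its reverse complement ATTGG) are known from such promoters as binding elements of the MuvB complexes and of NF-Y. RefSeq start sites on GRCm38.p6 were found for 8 of the 10 members, and Ccna2 and Aurkb were not among them. The 200 bases before the start are shown for the 2 genes that were on in the same 6 cells (Top2a and Cdk1), for Mki67, for the 2 genes that were on in the same 4 cells (Ccnb1 and Plk1) and for Ccnf, which was on in E1 and E3. Capitals mark each CHR or CCAAT match, 5′ to 3′ on the gene's strand.
Top2a, chr11:99024190-99024389, strand minus: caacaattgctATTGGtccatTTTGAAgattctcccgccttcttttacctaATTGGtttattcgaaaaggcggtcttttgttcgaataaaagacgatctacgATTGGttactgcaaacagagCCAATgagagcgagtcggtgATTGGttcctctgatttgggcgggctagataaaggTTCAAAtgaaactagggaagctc
Cdk1, chr10:69352913-69353112, strand minus: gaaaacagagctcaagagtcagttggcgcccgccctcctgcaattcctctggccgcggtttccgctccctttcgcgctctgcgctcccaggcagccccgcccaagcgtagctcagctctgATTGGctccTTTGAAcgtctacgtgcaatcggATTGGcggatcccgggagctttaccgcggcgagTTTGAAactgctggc
Mki67, chr7:135716380-135716579, strand minus: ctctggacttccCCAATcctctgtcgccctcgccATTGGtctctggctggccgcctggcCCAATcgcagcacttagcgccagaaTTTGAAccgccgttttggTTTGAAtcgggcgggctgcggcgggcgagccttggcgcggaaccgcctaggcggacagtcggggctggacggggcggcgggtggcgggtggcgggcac
Ccnb1, chr13:100786487-100786686, strand minus: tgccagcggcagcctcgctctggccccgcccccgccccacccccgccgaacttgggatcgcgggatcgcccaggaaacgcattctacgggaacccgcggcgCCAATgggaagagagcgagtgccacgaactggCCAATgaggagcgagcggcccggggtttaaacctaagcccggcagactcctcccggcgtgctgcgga
Plk1, chr7:122159235-122159434, strand plus: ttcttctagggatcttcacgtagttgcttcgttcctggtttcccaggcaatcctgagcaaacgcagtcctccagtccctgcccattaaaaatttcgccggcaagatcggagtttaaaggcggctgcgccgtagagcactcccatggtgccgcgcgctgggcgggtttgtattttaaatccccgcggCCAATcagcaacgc
Ccnf, chr17:24251410-24251609, strand minus: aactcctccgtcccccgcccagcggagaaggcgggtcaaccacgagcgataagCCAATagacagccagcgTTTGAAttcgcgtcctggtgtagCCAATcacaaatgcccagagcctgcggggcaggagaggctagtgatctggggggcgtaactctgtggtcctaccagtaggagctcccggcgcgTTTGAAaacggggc
A CHR match was present in 6 of 8 member promoters, against 12.7% of the 27025 gene promoters of the same length, and a CCAAT match in 8 of 8, against 30.0%. At least 2 CCAAT matches were found in 7 of 8, against 8.41% of all. Top2a had 5 CCAAT and 2 CHR matches, and Mki67 had 3 and 2. Ccnb1 had 2 CCAAT matches and Plk1 had 1, and neither had a CHR match in this window. Ccnf and Cdk1 each had 2 of both kinds. No CHR match overlapped a CCAAT match in any of these promoters. The matches are a description of letters, and the members were picked because they are cell cycle genes.

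The 10 genes were read in very unequal amounts from cell to cell. The number of members on was 8 in A2, 7 in H1, 3 in F7, 1 in C12 and 0 in C7 among the small cells, and 8 (C1), 6 (E1), 6 (E3) and 0 (G2) among the large cells. C3 also had 0 on. Cells with most of the genes on and cells with none thus occurred at both sizes. For comparison, the share of the 6435 detected genes that was on was 59.3% in A2, 26.2% in H1, 33.2% in F7, 26% in C12, 14.9% in C7, 48.2% in C1, 38.2% in E1, 36.1% in E3, 10.2% in G2 and 10.6% in C3. The members' share was above that of all detected genes in A2, H1, C1, E1 and E3, and below it in the other 5 cells.

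**Figure D1:**
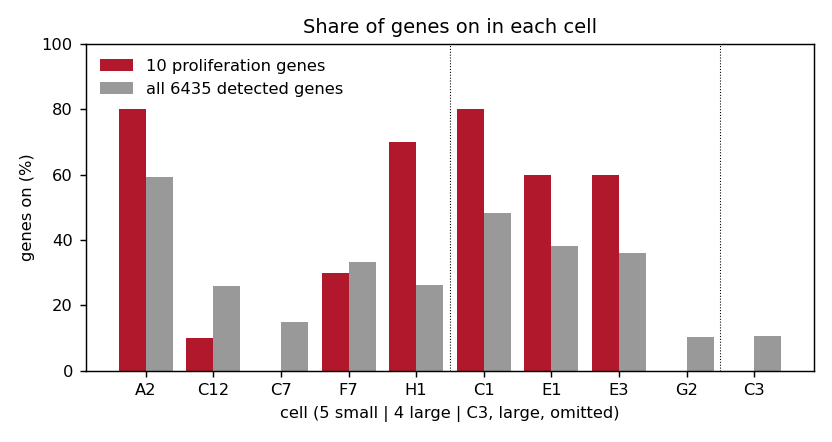
Share of genes on (percent, vertical axis) in each of the 10 cells (horizontal axis), with red bars for the 10 proliferation genes and grey bars for all 6435 detected genes. The red bar is the taller one in A2, H1, C1, E1 and E3 and is at 0 in C7, G2 and C3.

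The summed reads of the 10 genes were 3659 counts per 1000000 gene reads (CPM) in A2, 320 in C12, 0 in C7, 1088 in F7 and 5786 in H1. In the large cells these sums were 5123 CPM (C1), 5441 (E1), 6475 (E3) and 2.33 (G2), and C3 had 4.84. The CPM does not use the spike-in factor. H1 had 31790 member reads, more than A2 with 19051, although fewer members passed the limit in H1. The 13 member reads of G2 and the 20 of C3 came from Mki67 and Top2a alone. C7 had no read of any member, which at its depth allows up to 0.906 CPM for each. In all, G2 had 5588852 counts and C3 4129333, more than the 4043241 of C1, and C7 was the shallowest cell. Across the 10 cells, which share a chip and whose adjusted counts share the spike-in factors, the number of members on had a Pearson r of 0.867 with the number of all genes on, 0.831 with the spike-in-adjusted total, 0.241 with the total counts and 0.0753 with the relative volume.

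Of the 100 combinations of member and cell, 39 were on and 38 had no read. A further 14 had 1 to 50 reads, and 9 had more than 50 reads without passing the limit. Every member was on in at least 2 of the 10 cells, against 66.6% of the detected genes, 7 of 10 in at least 3 cells, against 45.9%, and 4 of 10 in at least 5 cells, against 22.1%. Top2a and Cdk1 were on in 6 cells, and 14.9% of the detected genes were on in 6 or more. On a scale of mean CPM per kilobase of exon over the 10 cells, the order of the levels was Top2a (134), Plk1 (73.2), Ccnb2 (61.9), Aurkb (60.1), Mki67 (58.5), Ccnb1 (56.1), Cdk1 (31.7), Ccnf (11.8), Ccna2 (10.1) and Ect2 (6.41). Each gene ran from 0 in C7 to at least 35.8 CPM per kilobase in its highest cell, and differences between neighbors in this order were not tested.

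**Figure D2:**
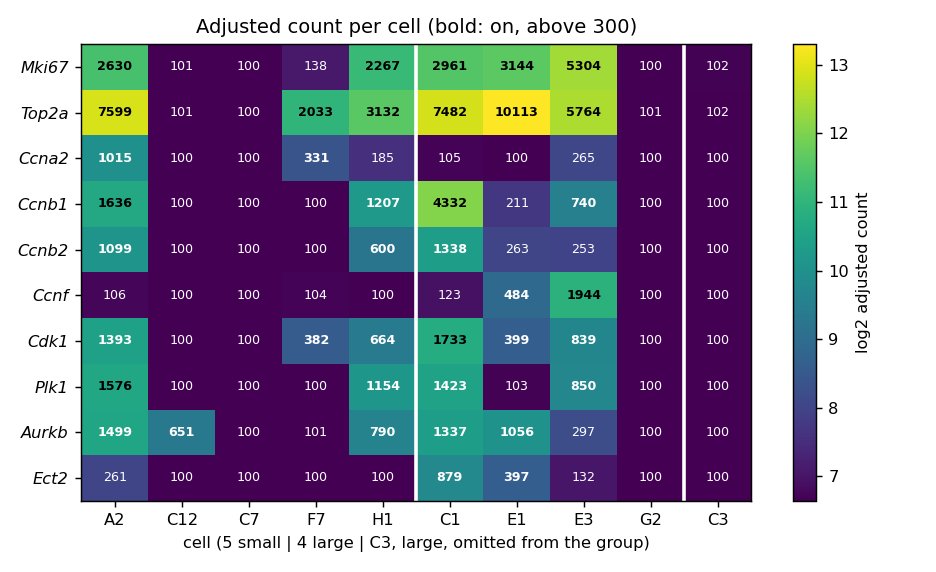
Adjusted count of each member (rows) in each cell (columns), printed in the cells of the plot and colored on a log2 scale, where 100 means no read and bold marks values above 300. Most values above 300 stand in A2, H1, C1, E1 and E3, F7 and C12 hold 3 and 1 of them, and C7, G2 and C3 hold none.

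Mki67 (ENSMUSG00000031004, chromosome 7) encodes Ki-67, a protein of proliferating cells that coats mitotic chromosomes. Its reads were 2706 in A2, 4 in C12, 0 in C7, 103 in F7 and 7490 in H1. In the large cells they were 2861 (C1), 6846 (E1), 13116 (E3) and 3 (G2), with 12 in C3. The gene was on in A2, H1, C1, E1 and E3, at adjusted counts of 2267 to 5304, and lay at 138 or less in the other cells. The small and large cells overlapped, since G2 was lower than 4 of the 5 small cells (all but C7).

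Top2a (ENSMUSG00000020914, chromosome 11) encodes topoisomerase II alpha, which untangles DNA copies and is made in S, G2 and M phases. Its reads were 8020 in A2, 4 in C12, 0 in C7, 5230 in F7 and 10476 in H1. The large cells had 7382 (C1), 22520 (E1), 14274 (E3) and 10 (G2), and C3 had 8. It was on in 6 cells (A2, F7, H1, C1, E1 and E3), where it had the most reads of any member, and its adjusted counts there were 2033 to 10113. F7 set Top2a apart from Mki67, with 5230 reads of the former and 103 of the latter.

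The cyclins did not share a pattern. Ccna2 (ENSMUSG00000027715, chromosome 3) encodes cyclin A2, which acts with Cdk2 in S phase and with Cdk1 later. Its reads were 979 in A2, 0 in C12, 0 in C7, 624 in F7 and 294 in H1. In the large cells they were 5 (C1), 1 (E1), 416 (E3) and 0 (G2), and C3 had 0. It was on in A2 and F7 only of the 10 cells, at adjusted counts of 1015 and 331, and C1 and E1, with many reads of Mki67 and Top2a, had next to none.

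Ccnb1 (ENSMUSG00000041431, chromosome 13) encodes cyclin B1, the main mitotic partner of Cdk1. Its reads were 1643 in A2, 0 in C12, 0 in C7, 0 in F7 and 3824 in H1. They were 4232 (C1), 250 (E1), 1614 (E3) and 0 in both G2 and C3. Adjusted counts above 300 were therefore seen in A2 (1636), H1 (1207), C1 (4332) and E3 (740), at both sizes, and E1 had 211.

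Ccnb2 (ENSMUSG00000032218, chromosome 9) encodes cyclin B2, a second mitotic partner of Cdk1. Its reads were 1068 in A2, 1728 in H1 and 0 in C12, C7 and F7. They were 1238 (C1), 367 (E1), 385 (E3) and 0 in both G2 and C3. It had reads in the same 5 cells as Ccnb1, but only in A2, H1 and C1 did it pass the limit (adjusted counts of 1099, 600 and 1338).

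Ccnf (ENSMUSG00000072082, chromosome 17) encodes cyclin F, which does not activate a kinase but, as known from human cells, directs a ribonucleotide reductase subunit to destruction in G2. Its reads were 6 in A2, 10 in F7 and 0 in C12, C7 and H1. They were 23 (C1), 864 (E1), 4646 (E3) and 0 in both G2 and C3. E1 and E3 were the only cells of the 10 in which it was on, at adjusted counts of 484 and 1944, and A2, H1 and C1, each with 7 or 8 members on, had at most 23 reads.

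Cdk1 (ENSMUSG00000019942, chromosome 10) encodes the kinase that drives mitosis. Its reads were 1383 in A2, 0 in C12, 0 in C7, 764 in F7 and 1949 in H1. Large cells had 1633 (C1), 672 (E1), 1863 (E3) and 0 (G2), and C3 had 0. The 6 cells with reads were the 6 cells in which it was on, at adjusted counts of 382 to 1733. No other member had this all-or-none pattern across the 10 cells.

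Plk1 (ENSMUSG00000030867, chromosome 7) encodes a kinase that acts on centrosomes, kinetochores and cytokinesis. Its reads were 1578 in A2, 3643 in H1 and 0 in C12, C7 and F7. Large cells had 1323 (C1), 7 (E1), 1891 (E3) and 0 (G2), and C3 had 0. It was on in the same 4 cells as Ccnb1 (A2, H1, C1 and E3), at adjusted counts of 850 to 1576.

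Aurkb (ENSMUSG00000020897, chromosome 11) encodes the kinase of the chromosomal passenger complex, which corrects chromosome attachment and guides cytokinesis. Its reads were 1496 in A2, 1835 in C12, 0 in C7, 2 in F7 and 2386 in H1. They were 1237 (C1), 2149 (E1), 497 (E3) and 0 in both G2 and C3. C12 was the cell that set Aurkb apart, since its adjusted count of 651 stood there beside at most 4 reads of any other member. E3 lay just under the limit, at 297.

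Ect2 (ENSMUSG00000027699, chromosome 3) encodes an exchange factor that activates RhoA at the cell equator for cytokinesis. Its reads were 172 in A2, 1 in C12 and 0 in C7, F7 and H1. They were 779 (C1), 668 (E1), 81 (E3) and 0 in both G2 and C3. The gene was on in C1 (adjusted count 879) and E1 (397) and lay below the limit in A2 (261).

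The cells in which the members were on formed a partly nested order. Top2a and Cdk1 shared A2, F7, H1, C1, E1 and E3. Mki67 was on in all of these except F7, Ccnb1 and Plk1 in all except F7 and E1, and Ccnb2 in A2, H1 and C1. Of the 45 pairs of members, 2 were on in the same cells, 23 had 1 set of cells inside the other, and 20 had neither. Such counts were not made for pairs of all detected genes, so they describe the members only. The pairs Ccna2 with Ccnf, Ccna2 with Ect2, and Ccnb2 with Ccnf had no cell in common at the limit of 300. With a limit of 200, Ccna2 and Ccnf shared E3, Ccna2 and Ect2 shared A2, and Ccnb2 and Ccnf shared E1 and E3. Aurkb (on in C12, and on in E1 but not in E3), Ccna2, Ccnf and Ect2 stood outside this chain. Several combinations lay close to the limit of 300. Ccna2 in F7 (331), Cdk1 in F7 (382), Ect2 in E1 (397) and Cdk1 in E1 (399) were just inside it, and Aurkb in E3 (297), Ccna2 in E3 (265), Ccnb2 in E1 (263) and Ect2 in A2 (261) just outside. With 1 read in place of the limit, E1 and E3 had 10 of 10 members, as did A2 and C1.

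Large and small cells differ here in the volume measured at capture, and the labels do not say whether a cell had already divided. Of 50 combinations of member and small cell, 19 were on (38%, against 31.9% over all detected genes), and of 40 combinations with the 4 large cells, 20 were on (50%, against 33.2%). By the score, the share of large cells on minus the share of small cells on, 2 of 10 members reached the limit of 0.5, against 5.83% of the 6435 genes in that direction. These were Ccnf (0 of 5 small and 2 of 4 large cells) and Ect2 (likewise 0 and 2). None of the 10 reached -0.5, against 1.88% of all, and Ccna2 came closest with a score of -0.4. Without E1 neither Ccnf nor Ect2 reached the limit, and none did with C3 kept or with a limit of 500 for on. Over all genes, 375 were higher in the main setting, 146 without E1, 53 with C3 kept and 265 with the limit of 500. Ccnf alone was higher without C1, and Ect2 alone without E3 (121 and 163 of all genes). Without C12, C7 or H1, Ccna2 was lower by score. The number of all genes lower was 414, 542 and 440 there, against 121 in the main setting. The combinations on numbered 11 without A2 and 12 without H1 in the small cells, and 12 without C1 in the large cells.

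On mean adjusted counts, the log2 ratio of large to small cells was 2.70 for Ccnf, 1.51 for Ect2, 1.46 for Mki67, 1.18 for Top2a, 1.10 for Ccnb1, 0.54 for Cdk1, 0.29 for Ccnb2, 0.15 for Aurkb, 0.03 for Plk1 and -1.28 for Ccna2. The ratio was above 0 for 9 of 10 members (50.7% of all detected genes), at least 1 for 5 (16.1% of all) and at most -1 for 1 (14.3% of all). The median over the members was 0.82, beside 0.02 over all detected genes. With no scaling by spike-ins 6 of 10 ratios were above 0 (Ccnb2, Aurkb and Plk1 turned to -0.14, -0.22 and -0.34) and the median was 0.38. With equal totals or with C3 kept 7 of 10 were above 0 (Aurkb and Plk1 turned), and the medians were 0.50 and 0.53. The median over all detected genes was -0.04 with no scaling, -0.03 with equal totals and -0.09 with C3 kept. The share of all detected genes above 0 was not computed for the alternatives. The sizes of the ratios of genes with few reads in a group depended on the constant of 100. With a constant of 1 the ratio was 7.62 for Ccnf, 3.06 for Ect2 and -2.50 for Ccna2, and with 10 it was 5.59, 2.77 and -2.28. For Ccnf the summed reads were 16 in the small cells (95% Poisson interval 9.15 to 25.98, counting error only) and 5533 in the large cells (5388 to 5681). For Ccna2 they were 1897 (1813 to 1984) and 422 (383 to 464). For each of the 10 members the adjusted counts of small and large cells overlapped, with G2 at 101 or less for all of them.

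Single cells carried much of these ratios. Without C1 the median of the members fell to -0.31 and that of all detected genes to -0.38, and 4 of 10 members (Ccnf, Mki67, Top2a and Ect2) were above 0. Ccnb2 turned to -0.96, Ccnb1 to -0.84, Plk1 to -0.79, Aurkb to -0.38 and Cdk1 to -0.24 without that cell. Aurkb or Plk1 or both also turned without E1, E3, C12, C7 or F7, which left 7 or 8 of 10 above 0. Without A2 the 2 medians were 1.57 and 0.53. C1 and A2 had the 2 highest spike-in factors (1 and 0.935) and the 2 highest numbers of genes on (3103 and 3819). Ccnf kept a ratio of at least 1.21 and Ect2 of at least 0.67 with any 1 of the 9 cells left out, and Ccna2 stayed below 0, at -0.33 or less.

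**Figure D3:**
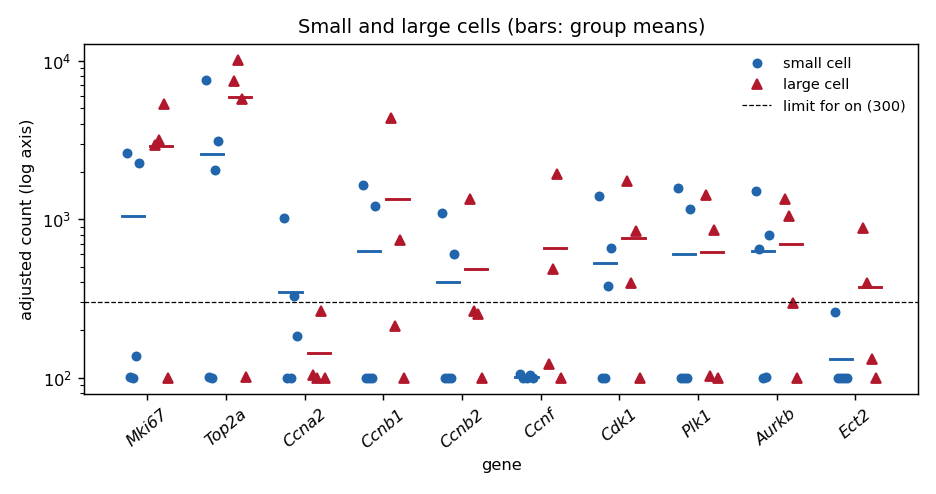
Adjusted counts on a log axis for each member, with blue circles for the 5 small cells, red triangles for the 4 large cells without C3, short bars for the group means and a dashed line at 300. In both groups most members have cells near 100, which means no or few reads, next to cells above 300, and only Ccnf and Ect2 have no small cell above the line.

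The positive control held few reads of these genes. Of the 10 members, 2 had at least 1 read there, whereas 54.5% of the 6435 detected genes did, and of the 7 members on in at least 3 cells 1 did, against 74.3% of such genes. Of the 4 members on in at least 5 cells, 1 had a read, against 89.1%. Top2a had 162 reads (95% Poisson interval 138 to 189), or 93.1 CPM, beside a mean of 1207 CPM over the 10 cells, which was 12.97-fold higher. Ccna2 had 1 read, and the mean of the cells was 71.9-fold higher (12.9 to 2841, from the Poisson interval of the 1 read). Mki67 had none, where the mean level of the cells would have given 1025 reads, so that the cells' mean was at least 342-fold higher when 3 reads are taken as the limit of this library. By the same floor the cells' mean was at least 137-fold higher for Ccnb1, 103-fold for Aurkb, 93.4-fold for Plk1, 90.8-fold for Cdk1, 55.0-fold for Ccnb2, 53.4-fold for Ccnf and 20.0-fold for Ect2. The control is 1 library made in a tube from diluted cDNA. It had 10208 reads of the B cell markers. Of the 28 S phase genes 14 had reads (2508 CPM in all), as did 11 of 19 genes of mitotic exit (3085 CPM). Fewer had reads among regulators of mitotic entry (3 of 19, 202 CPM), the kinetochore (5 of 21), spindle and cytokinesis (6 of 25) and condensation and cohesion (6 of 18). Smc4, on in 7 cells, and Birc5, Incenp and Nusap1, each on in 6, also had none. Missing reads in this library were therefore not particular to the members.

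**Figure D4:**
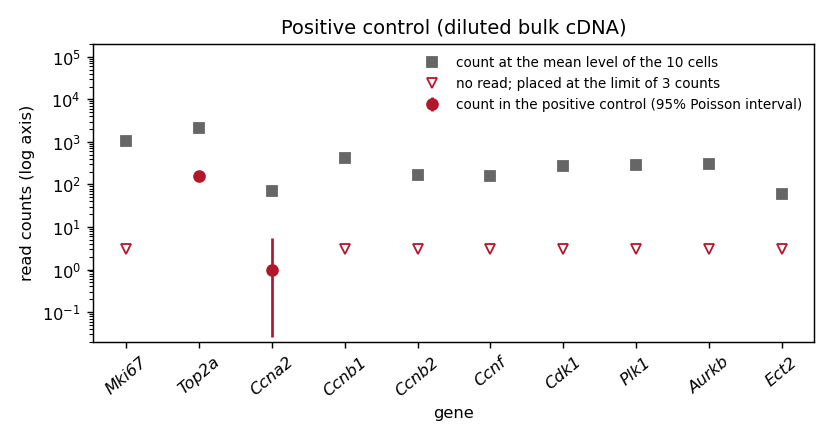
Reads of each member in the positive control (red circles with the 95% Poisson interval, open triangles at 3 counts where no read was found) and the reads expected in it at the mean level of the 10 cells (grey squares), on a log axis. The squares lie between 60.1 and 2102 reads, and 8 of 10 members have no read in the control.

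In the 0 h library all 10 members had reads, from 13 (Ccnb2) to 51 (Top2a), and 349 CPM in all. The share among all detected genes was 99.7%. In all, 33107 genes had a read in this library of 825441 counts, and its T cell markers had 6 to 33 reads and its B cell markers 7 to 54, so the members were not distinguished there from genes of other cell types. The negative control, with 190 gene counts, had no read of any member.

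The other genes of the same phases were counted by list in each cell, and a value after a gene called by score is its log2 ratio of large to small cells. Of all 6435 detected genes, 5.83% were higher by score and 1.88% lower, and their median log2 ratio was 0.02. No list was tested against these shares, and in short lists 1 or 2 genes called are a description only. Genes of S phase (28 genes for replication, nucleotide supply and the G1 to S switch) gave 19 of 28 on in A2, 2 in C12, 0 in C7, 22 in F7 and 6 in H1. The large cells had 13 on (C1), 20 (E1), 17 (E3) and 0 (G2), and C3 had 1. F7 thus had the most S phase genes on of the 10 cells with 3 of 10 members on, and H1 had 6 of 28 with 7 of 10 members on. The H1 library also had fewer genes on in all (1686) than F7 (2134). Rrm1, a subunit of ribonucleotide reductase, had an adjusted count of 3253 in F7 and 485 in H1. Mcm4, a subunit of the replicative helicase, had 2220 and 348, and Uhrf1, which keeps DNA methylation at replication forks, had 2335 and 380. All 3 genes were on in the same 6 cells as Top2a and Cdk1. Of the 26 detected genes of this list 2 were higher by score, Gmnn, an inhibitor of repeated licensing (1.05), and Cdk2, the S phase kinase (2.11), none was lower, and the median log2 ratio was 0.11.

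Of 19 regulators of mitotic entry, 13 were detected, and 9 were on in A2, 5 in F7, 4 in H1, 5 in C1, 2 in E1, 6 in E3, and 0 were on in C12, C7, G2 and C3. None was called by score in either direction (median log2 ratio 0.18). Cks1b, a subunit of Cdk complexes, was on in 5 cells, the kinase gene Aurka in 4 and the phosphatase gene Cdc25b in 3 (A2, H1 and C1, the cells of Ccnb2).

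Of 21 genes of the kinetochore and its checkpoint, 19 were detected, 3 were called higher by score, none lower, with a median ratio of 0.64. The higher ones were Spc25, a part of the Ndc80 complex (1.07), Cenpn, which binds centromeric nucleosomes (1.49), and Zwint, which links the checkpoint to the outer kinetochore (0.55). Bub3, a checkpoint protein, was on in 8 cells, G2 and C12 among them, and Cenpe, a kinetochore motor, was on in A2, H1, C1, E1 and E3, the cells of Mki67.

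Of 25 genes of the spindle and of cytokinesis, 22 were detected, 2 were called higher by score, none lower (median 0.44). The 2 were Kif23, a motor of the central spindle (0.99), and Kif22, a chromosome motor (1.53), both on in F7, C1, E1 and E3. Birc5 and Incenp, partners of Aurkb in the chromosomal passenger complex, were on in A2, F7, H1, C1, E1 and E3. Aurkb itself was on in C12, had 2 reads in F7 and lay just under the limit in E3 (adjusted count 297). Nusap1, which binds spindle microtubules, was on in C3 (adjusted count 644), where no member was.

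Of 18 genes of chromosome condensation and cohesion, all were detected, 2 were called higher by score, none lower (median 0.53). These were Stag2, a cohesin subunit (1.27), and Cdca5, which stabilizes cohesin (1.75). Smc4, a condensin subunit, was on in 7 cells, Hmgb2, a chromatin protein, in 6, and Smc1a, a cohesin subunit that resting cells also use, in 6, including C7.

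Of 19 genes of the anaphase-promoting complex and mitotic exit, 15 were detected, Anapc16 was higher by score (0.92), and none was lower (median 0.13). Ube2c, the E2 enzyme of that complex, was on in A2, H1, C1, E1 and E3. Fbxo5, which inhibits the complex, was on in A2, F7, C1 and E1, and the subunit gene Anapc5 in 6 cells.

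Each of the 10 cells had at least 1 gene on from the list of Cdk inhibitors and anti-proliferative genes. Of 13 such genes found in the table, 6 were on in A2, 3 in C12, 2 in C7, 2 in F7 and 3 in H1. The large cells had 3 (C1), 1 (E1), 3 (E3) and 2 (G2) on, and C3 had 3. C7, G2 and C3, with no member on, thus lay within the range of the other cells. Btg1, an anti-proliferative gene, was on in 9 of 10 cells and was not on in E1 (134). Its adjusted counts were 7317 in A2, 2473 in C12, 1890 in C7, 1209 in F7 and 2613 in H1. They were 1671 in C1, 1835 in E3, 1477 in G2 and 4172 in C3. Btg2, a relative of Btg1, was on in A2, C12, C7, H1 and G2 and was the 1 gene of the list that was lower by score (-0.59). Rbl1, a relative of the retinoblastoma protein, was higher by score (1.18), Rb1 itself was on in A2, C12, C1 and E3, and the median ratio of the 9 detected genes was -0.57.

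**Figure D5:**
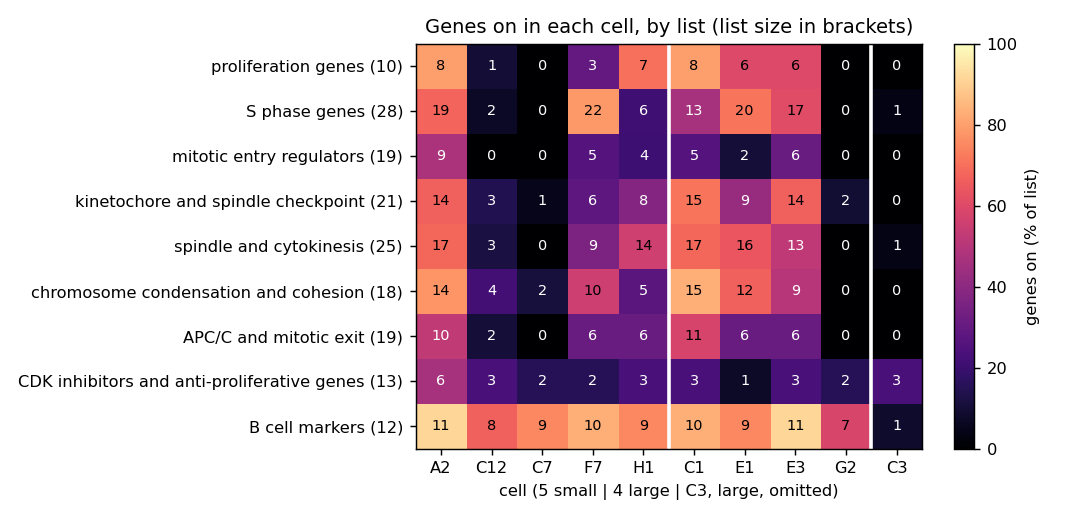
Number of genes on (printed) and share of each list on (color, percent) in each cell (columns), for the 10 proliferation genes, 7 lists of cell cycle genes and the B cell markers (rows). F7 has 22 of 28 S phase genes and 3 of 10 proliferation genes on, C7 and G2 have no S phase gene on, and B cell markers are on in every cell, with 1 of 12 in C3.

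The genes whose log2 adjusted counts went most closely with the number of members on per cell were sought among 2944 other genes on in 3 or more of these cells. The 5 with the highest Pearson r over the 10 cells were Hp1bp3 (0.984), Ube2c (0.980), Cacybp (0.974), Nsfl1c (0.972) and Ckap5 (0.967). Hp1bp3 encodes a protein related to linker histones, Cacybp a binding partner of calcyclin, Nsfl1c a cofactor of the p97 ATPase and Ckap5 a microtubule polymerase of the spindle. Hp1bp3 had adjusted counts of 1513 in A2, 1231 in H1, 2365 in C1, 582 in E1 and 1284 in E3, 253 in F7 and at most 108 in the other 4 cells. Ube2c had 743 to 2158 in the same 5 cells, 154 in F7 and about 100 in the rest. As the highest of 2944 values over 10 cells that share a chip, these r values are a description.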

How the data were processed

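PolyA RNA of 10 captured B cells and of 3 control libraries was amplified and sequenced. The authors used STAR (version not given in the sources used here) on mouse build m37 with Ensembl genes and deposited whole-number read counts per gene. The counting tool was likewise not named. The deposited spike-in factors and relative volumes were used unchanged. Another 26 per-sample columns and the authors' own comparisons (scores, enrichment ratios and p-values) were left aside.

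Adjusted counts, the limit for on and the score followed the study's methods (5 small cells, 4 large cells, C3 left out). GENCODE (GRCm38) gave symbols for 32919 of 37991 identifiers, and chromosomes and exon lengths for the listed genes. The kit keeps no strand, so overlapping genes cannot be told apart, and processed copies of these genes were not examined. The members and lists were chosen with earlier results of these data known. They comprised 7 lists of cell cycle genes and 6 of markers: B cell, T cell, myeloid, NK cell, erythroid (none on in any of the 10 cells) and plasma cell (5 of 6 on in A2 and 4 in C12). Named were all members, each cell cycle gene called by score, the 3 of each list on in the most cells, and the 5 genes most like the members.

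Alternatives were other limits, constants and scalings, thinning to 3311235 counts per cell, C3 kept, and each cell left out, and 1 without C7 and G2 was added after seeing the data. Intervals and the limit of 3 counts for a count of 0 cover counting error only, since PCR copies are not independent molecules. The score was tested on simulated data. Scripts ran in Python 3.11.15 with pandas 2.3.3, numpy 2.4.6, matplotlib 3.10.9 and scipy 1.17.1.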

Additional observations from a re-analysis of the deposited data

Results flagged for a closer look

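Among the 22 sets of values tested (each member's adjusted counts, and the number of members on, in the 5 small and in the 4 large cells), 5 had a highest cell far from the others by Dixon's ratio of the gap to the whole range. The usual rate of about 1 in 20 by chance holds for normally distributed replicates. It is not a chance rate for these sets, because cells are not replicates and a count of 0 stands at 100, so the values are a description. Ccna2 stood at 1015 in A2, with 331 in the next small cell. Ect2 stood at 261 in A2, below the limit for on, with about 100 in the other small cells. Ccna2 stood at 265 in E3, with 105 in the next large cell. Ccnb1 stood at 4332 in C1, with 740 in the next large cell. Ccnb2 stood at 1338 in C1, with 263 in the next large cell. The sets share cells and a scaling factor for each cell, so they are not independent, and A2 and C1 have the highest factors.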

How the results depend on the processing

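Cells of 1 size group are not replicates, so no value here is a test. Leaving out each cell in turn gave a median log2 ratio of the members from -0.31 (without C1) to 1.57 (without A2), 0 (without E1) to 3 members higher by score, 0 to 1 lower and, of member and cell combinations on, 11 to 19 (small) and 12 to 20 (large); the log2 ratio of Ccnb1 was -0.84 without C1 and 1.84 without A2. The 3 higher members without A2, H1 or G2 were Ccnf, Ect2 and Mki67. Over all genes, leaving out each cell gave 121 (without C1) to 783 (without A2) higher, against 375 in the main setting. It gave 88 (without G2) to 542 (without C7) lower, against 121. Without C12, C7 or H1 the 1 lower member was Ccna2, with 414, 542 and 440 of all genes lower. It was also Ccna2 without both C7 and G2 (1 lower), with 397 of all genes lower. Members higher by score were 0 with C3 kept, 1 with a limit of 200 (Ccnf) and 0 with a limit of 500. Of all genes, 53, 414 and 265 were higher in these 3 settings. With a limit of 1 read, 32 combinations were on in the large cells, and the number of members was 4 in C12, 2 in C3, 10 in E1, 10 in E3, 6 in F7 and 2 in G2. With a limit of 500, E1 had 3 members on and F7 had 1. Constants and scalings moved single genes: Ccnf rose from 2.70 to 3.85 with no scaling, 5.59 with a constant of 10 and 7.62 with 1, Ect2 from 1.51 to 2.77 and 3.06 with those constants, and Ccna2 went from -1.28 to -2.28 and -2.50 with them and to -0.87 with equal totals. The median ratio was 0.38 with no scaling, 0.50 with equal totals and 0.92 with a constant of 1. Every other alternative left the counts of members on or called within 1.5 times. No paired analysis was possible because the labels pair no small cell with a large one.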
